A study of Mus musculus and Bos taurus with 6 samples.

Results

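The family of miR-2284 and miR-2285 was described in the lactating bovine mammary gland. Its members were the lines of the bovine quantification whose miRNA name begins with bta-miR-2284 or bta-miR-2285, whatever letters follow, so that the rule itself used no measured value. There were 48 members of the 1539 bovine lines, 25 named miR-2284 and 23 named miR-2285, which made up 9.38% of the 512 lines of miRNA known in bovine. The other lines were 178 miRNA known in other species and 849 predicted from the reads. The study sequenced small RNA of lactating mammary glands of mouse and bovine, and of mouse RNA precipitated with the AGO2 protein, with 2 libraries of each kind. The mice were FVB/N at day 12 of lactation. The 2 bovine libraries, named A2 and A4, formed 1 group, so that no contrast between conditions existed and no test was made. Each library was a pool of biopsies from 2 multiparous Holstein cows in mid-lactation, and all animals received the same low forage (LF) diet of natural hay with concentrates. A pool gives 1 value for its 2 animals, and the SD over the libraries therefore describes pools and not cows.

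A miRNA is cut from the stem of a hairpin precursor, and either the 5′ (5p) or the 3′ (3p) side of the stem may be kept as the mature strand. The mature strand guides a silencing complex to messenger RNA, mainly through pairing of the seed, a short stretch near its 5′ end. miRNA with the same seed are usually treated as a family because they can recognise the same sites. The genes of miR-2284 and miR-2285 are known for their many similar copies in the genomes of ruminants, and the functions of the single members are largely unknown.

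The sequences were compared first, since the members differ in where they begin. Those shown here carry most of the reads of the family, or mark a different 5′ end. Letters are RNA, 5′ to 3′, and capitals mark the seed, taken as nucleotides 2 to 7.
bta-miR-2284x: uGAAAAGuucguucggguuuu
bta-miR-2284z: aAAAAAGuuuguuuggguuuuu
bta-miR-2284aa: aAAAAAGuuuguuuggguuuu
bta-miR-2284ab: uAAAAGUuugguuggguuuuu
bta-miR-2284j: gAAAAGUucguucagguuuu
bta-miR-2284y: aAAAGUUcguucggguuuuuc
bta-miR-2284o: aAAGUUCguucgggguuuuc
When laid on bta-miR-2284x without gaps, bta-miR-2284j began 1 nt later, bta-miR-2284y 2 nt later and bta-miR-2284o 3 nt later. Over the bases that overlapped, bta-miR-2284j matched bta-miR-2284x at 19 of 20 positions, bta-miR-2284y at 19 of 19 and bta-miR-2284o at 17 of 18. The seeds of the 4 miRNA are thus neighbouring frames of nearly the same stretch of sequence, namely GAAAAG in bta-miR-2284x, then AAAAGU in bta-miR-2284j, then AAAGUU in bta-miR-2284y and then AAGUUC in bta-miR-2284o. These 4 frames held 17 members, of which 1 had the first seed, 8 the next, 6 the one after it and 2 the last. bta-miR-2284aa was the sequence of bta-miR-2284z without its last base.

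Members of the second kind were similar to the opposite strand of bta-miR-2284x. The sequences below show the reverse complement of bta-miR-2284x, the 3 miR-2285 members with the most reads, and bta-miR-2285u, which matched that complement at 18 of 18 overlapping bases.
reverse complement of bta-miR-2284x: aaaacccgaacgaacuuuuca
bta-miR-2285t: aGAAUCUggaugaacuuuuugg
bta-miR-2285aa: aAAACUGgaacgaacuuuugggc
bta-miR-2285o: aAACCCGaacgaacuuuugg
bta-miR-2285u: gAAAAACccgaacgaacuuu
Of the 48 members, 25 matched bta-miR-2284x better in the forward direction and 23 matched its complement better. Apart from bta-miR-2284x itself, forward members matched at 14 to 19 bases and matched the complement at only 8 to 13. The 23 complement members matched the complement at 14 to 18 bases and the forward strand at 8 to 12. The name followed this split with 1 exception on each side. The forward members were 24 miR-2284 and bta-miR-2285af, and the complement members were 22 miR-2285 and bta-miR-2284t-3p. The listed arm followed it as well, since all 23 complement members were listed at 3p, and 23 of the 25 forward members at 5p. The exceptions were bta-miR-2284u and bta-miR-2284v, forward sequences that were listed at 3p. The 5p and 3p sides of a stem pair with each other, so that direction and arm are not independent in similar hairpins.

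The family as a whole took a small share of the bovine reads. The deposited values are counts, which summed to 9402483 in library A2 and 10613807 in library A4, and RPM are counts per 1000000 of these sums. The members had 22951 counts in A2 and 26989 in A4, or 2441 and 2543 RPM. The family share was therefore 0.244% and 0.254%, with a mean of 0.249% ± 0.00720 (SD, n = 2). One count was worth 0.106 RPM in A2 and 0.0942 RPM in A4, and a count of 0 allowed up to 3 counts, or 0.319 and 0.283 RPM. All such limits and intervals cover counting error only, because the reads carry no molecular identifiers. Since a biopsy holds several cell types, fewer cells that make a miRNA and less of it per cell cannot be told apart. Epithelial markers (miR-148a, miR-200a, b and c, miR-141 and miR-205) were all counted and summed to 150947 and 154101 RPM in A2 and A4. Endothelial miR-126 reached 62356 and 55972 RPM, the contractile and stromal miR-143 and miR-145 summed to 71833 and 56990 RPM, the 3 leukocyte markers (miR-142, miR-150 and miR-223) to 2367 and 3050 RPM, and the red cell markers miR-144 and miR-451 to 1462 and 872 RPM. The muscle markers miR-1, miR-133a and miR-206 summed to 728 and 783 RPM, and the liver marker miR-122 was at 2.87 and 1.98 RPM. The part of these cell types in the level of the family was not tested.

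bta-miR-2284x made up most of the family. It had 17813 counts in A2 and 21543 in A4, or 1895 and 2030 RPM, and ranked 60 of all bovine lines by its mean. That was 77.6% of the family in A2 and 79.8% in A4, and 9.94 times the mean level of the next member. It was the only member above 1000 RPM. Without it, the other 47 members summed to 546 RPM in A2 and 513 RPM in A4, so that the order of the libraries turned, with A4 at 1.04 times A2 for the whole family and at 0.939 times A2 for the rest. Under median-of-ratios size factors, which raise every log2 ratio of A4 over A2 by 0.15, these values were 1.16 and 1.04, and the rest no longer lay lower in A4.

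The next members were also of the forward kind. bta-miR-2284z had 1989 counts in A2 and 1944 in A4, or 212 and 183 RPM, with a mean of 197 ± 20.1 RPM (SD, n = 2). bta-miR-2284ab had 1242 and 1209 counts, or 132 and 114 RPM, with a mean of 123 ± 12.9 RPM (SD, n = 2). These were the remaining members above 100 RPM, a level used in the study as a limit of abundance, and both libraries were above it for all 3. bta-miR-2284aa followed with 596 and 666 counts, or 63.4 and 62.7 RPM, and bta-miR-2284y with 503 and 512 counts, or 53.5 and 48.2 RPM. The 5 members together held 96.5% of the family in A2 and 95.9% in A4, and the other 43 held 3.52% and 4.13%. Because bta-miR-2284z and bta-miR-2284aa differ by 1 terminal base, how the counting divided reads that fit both is uncertain, and their sum of 5195 counts over both libraries is firmer than either value.

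The miR-2285 members were far lower. They summed to 48.7 RPM in A2 and 61.7 RPM in A4, against 2392 and 2481 RPM for the miR-2284 members. bta-miR-2285t was the highest of them, with 233 counts in A2 and 369 in A4, or 24.8 and 34.8 RPM. bta-miR-2285aa had 80 and 91 counts, or 8.51 and 8.57 RPM. bta-miR-2285o had 37 and 31 counts, bta-miR-2285p 24 and 34, and both were below 5 RPM in each library. The median summed count over both libraries was 6 for the miR-2285 members and 22 for the miR-2284 members. Nearly all reads thus came from sequences of the forward kind, with 98.0% of the family in A2 and 97.6% in A4.

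**Figure D1:**
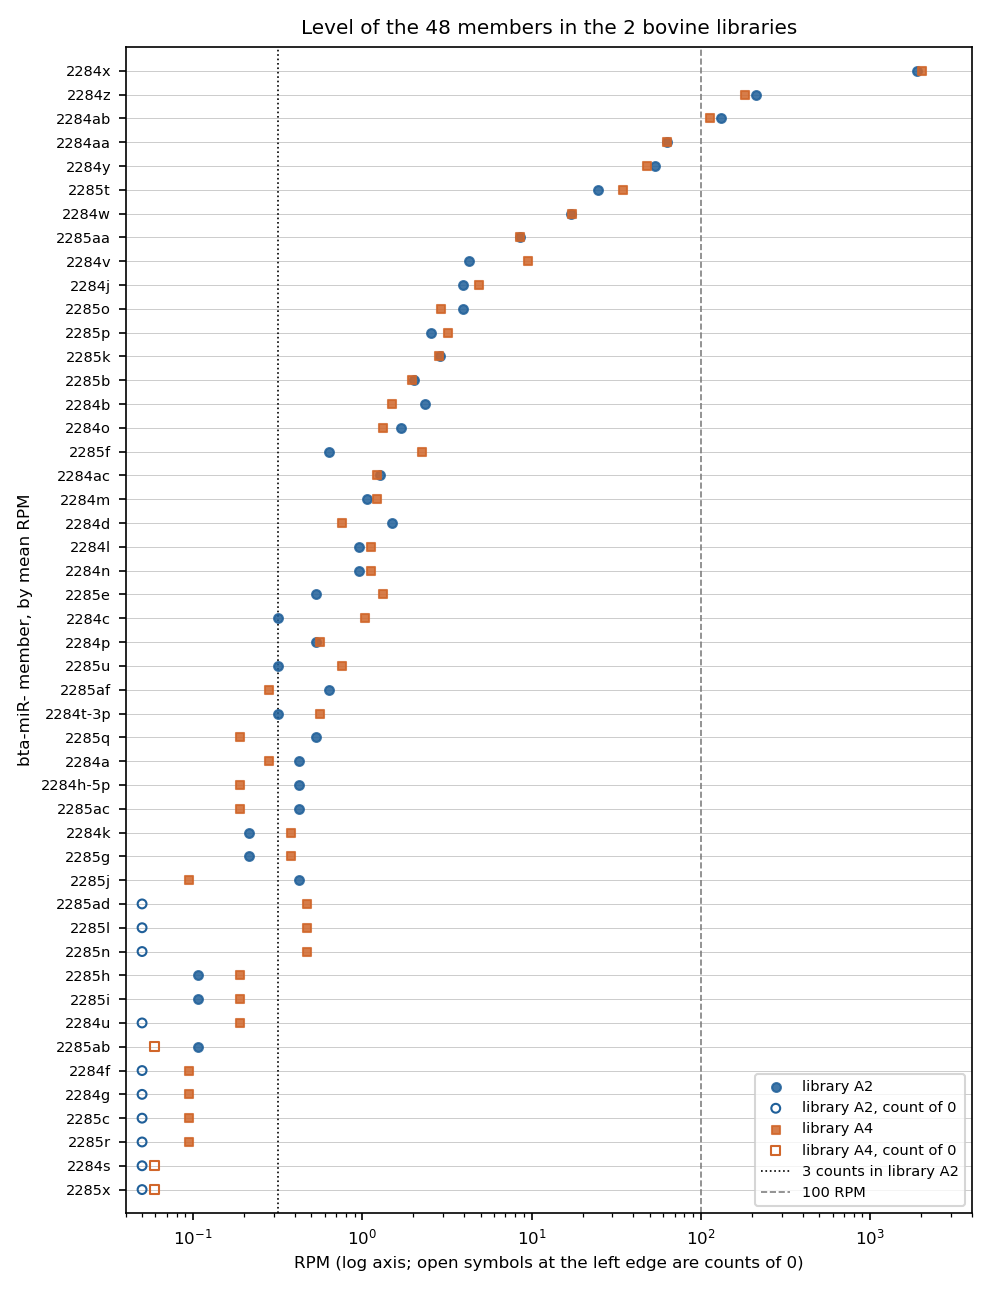
RPM of each of the 48 members (log axis) in library A2 (circles) and library A4 (squares), ordered by the mean of both. Each point is 1 pool of 2 cows, open symbols at the left edge are counts of 0, the dotted line marks 3 counts in A2 and the dashed line 100 RPM. bta-miR-2284x stands 9.94 times above the next member, and 3 members lie to the right of 100 RPM.

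The remaining members spread over the lowest levels that the libraries could show. Of the 48 members, 46 were counted at least once, 37 in both libraries and 9 in only 1. Of these 9, 8 were counted only in A4 and 1, bta-miR-2285ab, only in A2, and none had more than 5 counts. In all, 38 members were counted in A2 and 45 in A4. Of all 1539 lines, 1126 were counted in A2 and 1120 in A4. The share counted in only 1 library was not computed for all lines, so that the 9 members and their split do not set the family apart. bta-miR-2284s and bta-miR-2285x had a count of 0 in both libraries. By mean level, 4 members lay between 10 and 100 RPM, 15 between 1 and 10 RPM and 26 below 1 RPM. The median summed count was 12.5 for the members and 172 for the other 464 lines known in bovine. By these medians, the typical level of a listed member was lower than that of the other listed known miRNA. The share that was never counted was nearly equal, at 4.17% of the members and 4.96% of those other lines. The list does not hold every miRNA of the family, since the precursor bta-mir-2285v had a predicted 5p line but no member line. The shares never counted therefore describe the deposited list and not how much of the family was detected.

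The order of the highest members was the same in both libraries down to the seventh, bta-miR-2284w, which had 160 counts in A2 and 183 in A4, or 17.02 and 17.24 RPM. From there the order changed, since bta-miR-2284v was at 4.25 RPM in A2 and 9.52 RPM in A4, on both sides of bta-miR-2285aa. bta-miR-2284j was at 3.94 and 4.90 RPM. Over the 37 members counted in both libraries, the Pearson correlation of log10 RPM was 0.963 and the Spearman correlation 0.912. These points share 2 libraries, similar base composition and a spread set mostly by the few high members, and the correlations are given as a description.

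The ratio of the libraries was then compared with that of all bovine lines. Among lines with at least 20 summed counts, 2 of 22 members lay over 2-fold apart in RPM, or 9.09%, beside a background of 7.99% for all 563 lines. The share of the members was therefore near the background. The median log2 ratio of A4 over A2 was -0.00 for the members, with an SD of 0.58, and -0.09 for all lines with counts in both libraries, with an SD of 0.61. By library sums, 11 of the 22 members were higher in A4 and 11 in A2, and under the size factors 16 were higher in A4.

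The 2 members over 2-fold apart were both higher in A4. bta-miR-2284v had 40 counts in A2 and 101 in A4, a log2 ratio of 1.16 with an exact 95% counting interval from 0.62 to 1.73. bta-miR-2285f, the highest of 3 members with the seed AAACCU, had 6 and 24 counts, a log2 ratio of 1.83 with an interval from 0.50 to 3.41. Each value rests on 1 pool per side, and differences between animals, biopsies and library preparation cannot be told apart. The higher members were closer together. Of the 9 members with at least 100 summed counts, 8 lay within 1.5-fold by library sums, and bta-miR-2284v was the exception. The log2 ratio was 0.10 for bta-miR-2284x, with a counting interval from 0.07 to 0.13, and 0.49 for bta-miR-2285t, with an interval from 0.25 to 0.73. It was -0.21 for both bta-miR-2284z and bta-miR-2284ab, and -0.05 and -0.06 under the size factors. The size factors moved bta-miR-2284x to 0.25 and bta-miR-2285t to 0.64, which is over 1.5-fold. By library sums, counting error alone left 0 outside the interval for 6 of the 22 members. These were bta-miR-2284x, bta-miR-2284z, bta-miR-2284ab, bta-miR-2285t, bta-miR-2284v and bta-miR-2285f. The intervals were not computed under the size factors. The same count was not made over all lines, so it does not set the members apart from other lines.

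**Figure D2:**
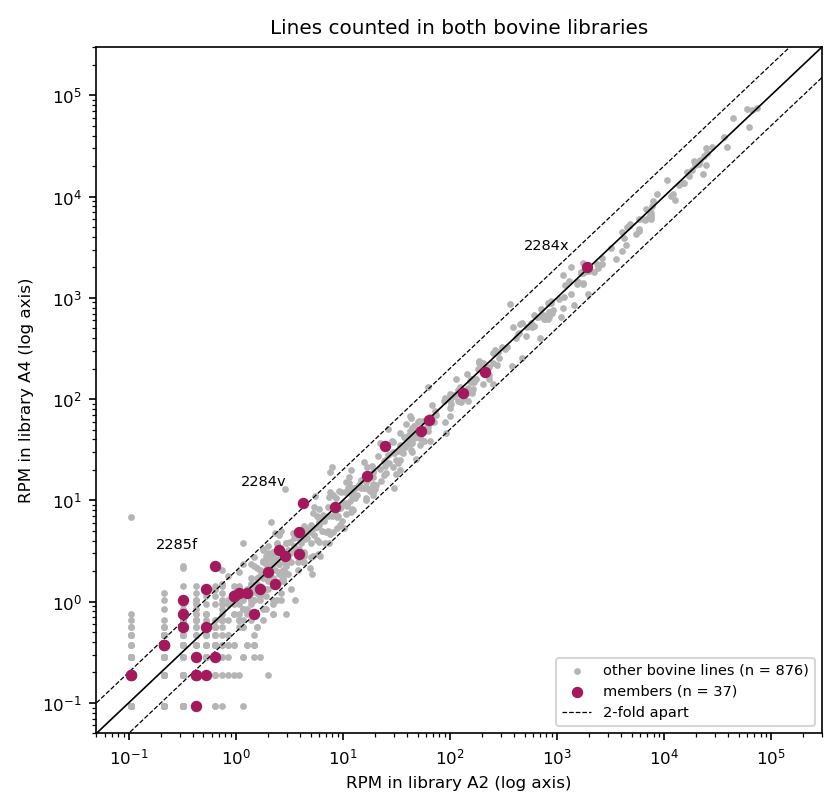
RPM in library A4 against RPM in library A2 (log axes) for the lines counted in both, with 37 members in colour and the other bovine lines in grey. The solid line marks equal RPM and the dashed lines 2-fold. Members lie in the cloud of the other lines, and bta-miR-2284v and bta-miR-2285f lie above the upper dashed line. Some members with under 20 summed counts lie above the upper dashed line and others below the lower one.

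The 24 members with 1 to 19 summed counts held only 53 counts in A2 and 91 in A4. Of them, 17 lay over 2-fold apart, and the exact 95% counting interval of the log2 ratio included 0 for all 24. The 17 include the 9 members counted in only 1 library, since a count of 0 against any count was taken as apart. The share over 2-fold apart was not computed for other lines with as few counts, so it does not set the members apart. bta-miR-2285e, the highest of 3 members with the seed AACCUG, had 5 counts in A2 and 14 in A4. bta-miR-2285j, the highest of 3 with the seed AAAACC, had 4 and 1. At this depth a difference between the libraries was not detectable for such members.

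The 48 members had 48 distinct mature sequences and 25 seeds, of which 15 belonged to 1 member alone and 5 to at least 3 members. The levels of the seed groups were as uneven as those of the members. The seed GAAAAG, held by bta-miR-2284x alone, summed to 1895 RPM in A2 and 2030 RPM in A4. The seed AAAAAG of bta-miR-2284z and bta-miR-2284aa summed to 275 and 246 RPM. The seed AAAAGU, the most common with 8 members, summed to 144.3 and 132.8 RPM, and bta-miR-2284ab made up 88.8% of its mean. The seed AAAGUU, with 6 members, summed to 57.2 and 51.4 RPM, and bta-miR-2284y made up 93.6% of it. The 4 seeds took 97.1% of the family reads in A2 and 96.7% in A4 with 17 of the 48 members. The seed with the most members thus ranked below 2 seeds with 1 and 2 members.

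**Figure D3:**
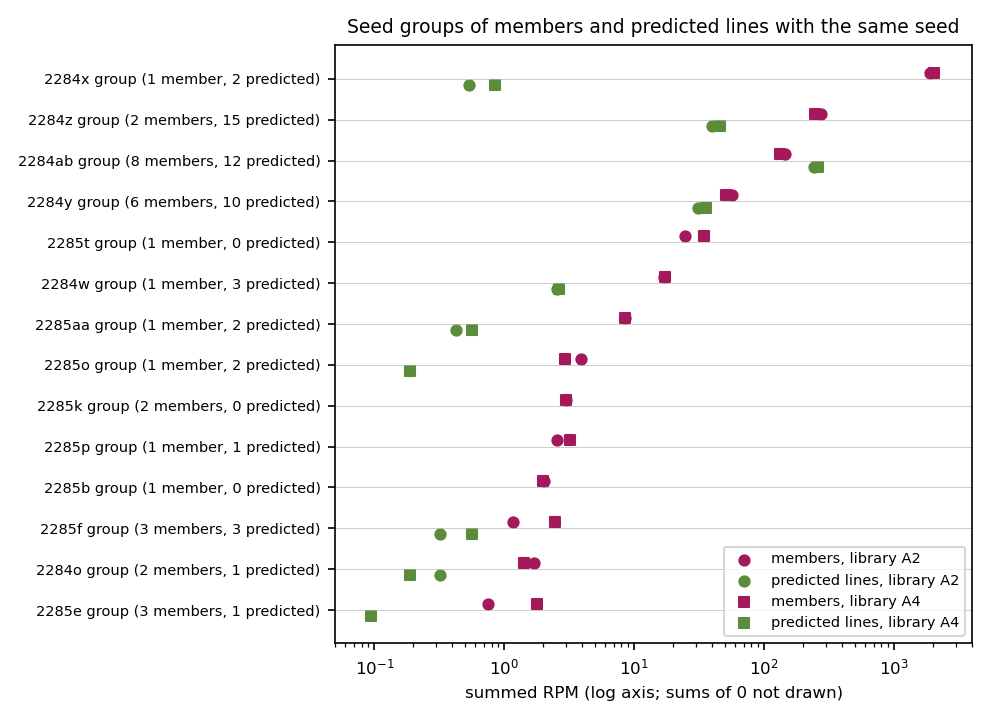
Summed RPM (log axis) of the 14 highest seed groups, each named after its highest member, in libraries A2 (circles) and A4 (squares). Members are shown apart from predicted bovine lines with the same seed. The group of bta-miR-2284x is highest, and in the group of bta-miR-2284ab the predicted lines, at 242 and 261 RPM, exceed the members, at 144.3 and 132.8 RPM.

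When the forward members were sorted by their 5′ end relative to bta-miR-2284x, the reads were highest at its own start and lower at each start further downstream. The 3 members that began at the same base, bta-miR-2284x, bta-miR-2284z and bta-miR-2284aa, summed to 2169 RPM in A2 and 2276 RPM in A4. The 9 members that began 1 nt later summed to 144.9 and 133.4 RPM. The 8 members that began 2 nt later summed to 75.5 and 69.9 RPM, and the 2 that began 3 nt later to 1.70 and 1.41 RPM. Only 3 members began further upstream, namely bta-miR-2284h-5p, bta-miR-2285af and bta-miR-2284s, and each was below 1 RPM. This order of the starts from 0 to 3 nt was the same in both libraries. The reference was the most abundant member, so that the highest sum at its start largely follows from that choice. Without bta-miR-2284x, the members at the shared start still summed to 275 and 246 RPM, above the sums at 1 nt later. Predicted lines were left out of these sums. With those of the same seed, AAAAGU, whose 8 members began 1 nt later, reached a mean of 390 RPM. The seed AAAAAG of bta-miR-2284z and bta-miR-2284aa then reached 303 RPM, so that this order turned. Starts are those of the listed mature sequences, and 5′ ends of single reads were not analysed here.

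**Figure D4:**
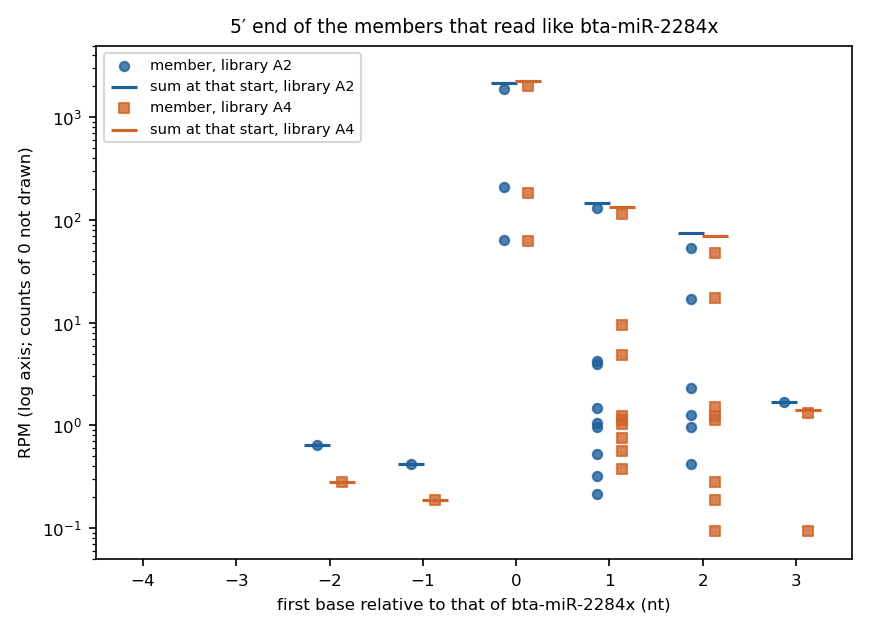
RPM (log axis) of the 25 forward members by the position of their first base relative to that of bta-miR-2284x, in libraries A2 (circles) and A4 (squares), with a bar for the sum at each start. Counts of 0 are not drawn. The sums fall from 2169 and 2276 RPM at the shared start to 1.70 and 1.41 RPM 3 nt later.

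The members shared further features, which are not independent of their likeness to each other. The members were 20 to 23 nt long. Their median GC content was 36.4%, ranging from 22.7% to 47.6%, against a median of 47.8% for the other lines known in bovine. Of the 48 members, 36 began with A, 7 with G, 4 with U and 1 with C. The share beginning with U was 8.33%, against 47.4% of the other known lines. Those 4, which included bta-miR-2284x and bta-miR-2284ab, held 83.0% of the family reads in A2 and 84.3% in A4. Most member sequences thus began with A, whereas most reads belonged to sequences that began with U. None of the 48 ended with A, against 19.2% of the other known lines. Poly-A stretches were removed from the reads before counting, and what this did to the level of each line was not tested.

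Many members were also close to each other. The nearest other member was 1 edit away (1 base substituted, added or missing) for 6 members, at most 2 edits for 28 and at most 6 edits for all 48. The pairs at 1 edit were bta-miR-2284z with bta-miR-2284aa, bta-miR-2285f with bta-miR-2285ab and bta-miR-2285e with bta-miR-2285c. Counts within such pairs are uncertain, because a read with 1 error may fit both. For 12 members the listed precursor carried a copy number, up to 6, so that reads of 1 mature sequence may come from several loci.

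The predicted bovine lines held further sequences of the same kind. Of the 849 predicted lines, 108 were within 4 edits of a member, or 12.7%, and 730 were at least 7 edits away. Among the other lines, 2 of 464 known in bovine, 0 of 178 known in other species and 0 of 1750 mouse lines were that close. The distance of 4 edits was set after the distances had been seen. The known lines were bta-miR-2435, at 3 edits, which had no count, and bta-miR-2312, at 4 edits, which had 2 counts in A2 and 0 in A4. The 108 predicted lines summed to 397 RPM in A2 and 425 RPM in A4, which is 13.996% of the mean level of all predicted lines. Most were rare, with a median summed count of 5. The arms were split as in the members, since all 70 such lines listed at 5p were nearest to a forward member, and 36 of the 38 listed at 3p to a complement member. Members and near lines together came to 2838 and 2968 RPM.

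**Figure D5:**
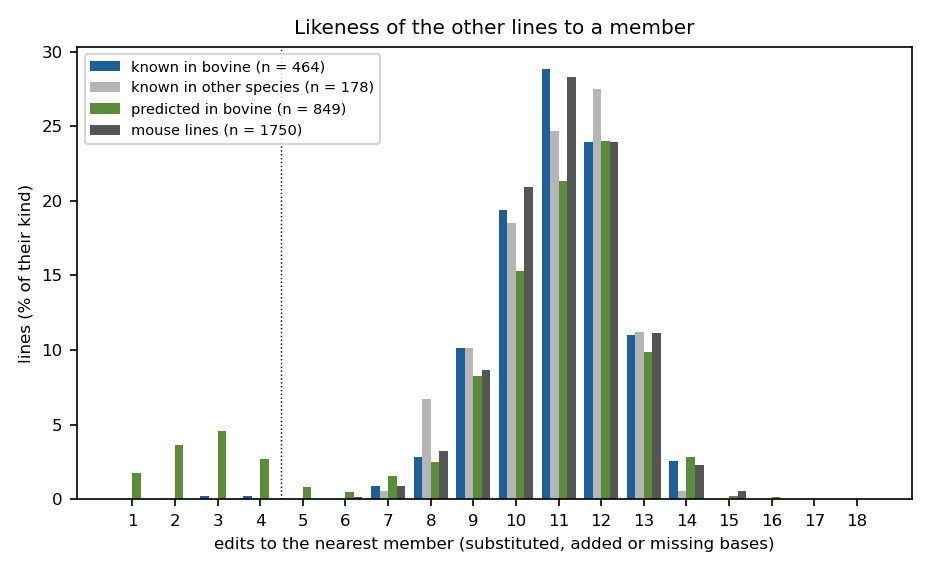
Share of lines (% of their kind) by the number of edits to the nearest member, for bovine lines known in bovine, known in other species and predicted, and for mouse lines. The dotted line marks 4 edits. Of the predicted bovine lines, 12.7% lie to its left, and 0 of 1750 mouse lines do.

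By seed, 66 predicted lines shared nucleotides 2 to 7 with a member, and 61 of them were within 4 edits. They summed to 320 RPM in A2 and 350 RPM in A4. The 3 highest are shown, of which the first reached the level of the leading members.
bta-16_10094_mt: aAAAAGUucguucagguuuuu
bta-14_8643_mt: aAAAAGUuaguuuagguuuuu
bta-8_37539_mt: cAAAAAGuuuauuuggguuuuu
bta-16_10094_mt had 1889 counts in A2 and 2208 in A4, or 201 and 208 RPM, close to bta-miR-2284z and above bta-miR-2284ab. bta-14_8643_mt had 275 and 398 counts, or 29.2 and 37.5 RPM. bta-8_37539_mt had 202 and 290 counts, or 21.5 and 27.3 RPM. With the predicted lines, the seed AAAAGU rose from a mean of 139 RPM to 390 RPM and passed the seed AAAAAG, which came to 303 RPM, while GAAAAG gained 0.690 RPM. The order of these seeds thus depended on whether predicted lines were counted.

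For 3 precursors of the family, the listed member was the 3p strand and a predicted line gave the 5p strand. In all 3, the 5p line had more counts in both libraries. Since predicted lines were called from these same reads, the 3 precursors were not chosen independently of their 5p reads. The other members listed at 3p had no 5p line on their precursor, so that nothing follows for them. On the precursor of bta-miR-2285t, the 5p strand was bta-16_10094_mt, with 8.11 times the counts of bta-miR-2285t in A2 and 5.98 times in A4. Its share of the counts of both strands was 89.0% in A2 (exact binomial 95% interval from 87.6% to 90.3%) and 85.7% in A4 (from 84.3% to 87.0%). On a copy of the precursor of bta-miR-2285e, the 5p line bta-24_23039_mt, named here after its values were seen, had 108 and 159 counts, against 5 and 14 for bta-miR-2285e, or 21.6 and 11.4 times as many. The 5p share was 95.6% in A2 (from 90.0% to 98.5%) and 91.9% in A4 (from 86.8% to 95.5%). On the precursor of bta-miR-2285h, the 5p line had 4 and 13 counts against 1 and 2. The interval of its 5p share was 28.4% to 99.5% in A2, so that a difference between the strands was not detectable there, and 59.5% to 98.3% in A4. The 5p strand of these miR-2285 precursors was of the forward kind and carried a seed of the miR-2284 members, namely AAAAGU for bta-miR-2285t, then AAAGUU for bta-miR-2285e and then AAAAAG for bta-miR-2285h. Because the sides of a stem pair with each other, the forward kind of a 5p strand is not independent of its complement 3p member. Since similar loci could give the same 5p sequence, reads of the named precursor and of other loci cannot be told apart.

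The hairpin predicted for bta-16_10094 is shown with the 5p and 3p strands in capitals.
bta-16_10094: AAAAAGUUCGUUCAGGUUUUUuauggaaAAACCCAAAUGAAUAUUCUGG
The list of predicted precursors placed it at chr16:29150096-29150144 on the plus strand of the bovine assembly UMD3.1. No bovine annotation was used here to place it in a gene. RNAfold gave it 15 base pairs and a free energy of -11.9 kcal/mol. Its predicted 3p strand was 8 edits from bta-miR-2285t, although the quantification lists its 5p strand on the precursor of that miRNA. The corresponding distance was 7 edits for bta-24_23039 and bta-miR-2285e.

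In the mouse libraries, whose reads were counted against mouse precursors, no line bore the name of the family and 0 of 1750 mature sequences was identical to a member. The nearest mouse line was 6 edits from a member. Among the 4 leading seeds of the family, GAAAAG was held by 1 mouse line, at 0.215 and 0.238 RPM in the 2 mammary libraries and at 0 counts in both AGO2 libraries, and the other seeds by none. Over all 25 seeds, 10 mouse lines shared 6 of them and summed to 24.8 and 26.0 RPM in the mammary libraries and to 45.8 and 47.2 RPM in the AGO2 libraries. These lines, such as mmu-miR-148a-5p and mmu-miR-409-3p, were 7 to 12 edits from the nearest member, so that little but the seed was shared. Reads of this kind that have no mouse precursor would not have been counted, so that these values describe the mouse list of miRNA and not the mouse RNA.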

How the data were processed

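Small RNA was measured in 2 bovine libraries, each a pool of 2 cows. After trimming of poly-A and selection by size, the authors predicted precursors with miRDeep2 on UMD3.1 and deposited raw counts per mature miRNA. The deposited score of a predicted precursor, with pooled read counts, was also made by the authors with miRDeep2. Prediction used reads with a limited number of alignments, and the counts were filtered by the authors to remove lines repeated between known and predicted miRNA. The version of miRDeep2, and how a read that fits several remaining lines was divided, are not given in the sources used here. The normalised column was not used.

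RPM were computed over the library sum. Seeds were nucleotides 2 to 7, T was written as U, and likeness to bta-miR-2284x was the ungapped placement with most matches over at least 12 bases. Starts in the prediction list were raised by 1, since end minus start equalled the length for all 767 precursors. Intervals were exact Poisson or binomial at 95%. The family, its naming rule, the lists and the limits were chosen with earlier results of these data known, although the rule uses names only. Named were the 12 highest members, those over 2-fold apart at 20 or more summed counts, the highest of each seed with at least 3 members, members with identical sequences (there were none) and the 3 highest predicted lines with a member's seed. With 1 group no test was made. The counting of lines over 2-fold apart and the sequence comparisons were tested on simulated data. Alternatives left out each library, changed the minimum count, the scaling, the seed and the denominator, or added predicted lines. Python 3.11.15, NumPy 2.4.6, pandas 2.3.3, SciPy 1.17.1 and RNAfold 2.7.2 were used.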

Additional observations from a re-analysis of the deposited data

How the results depend on the processing

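With 2 libraries, a level with 1 left out lies within 1 SD by construction. Leaving out a library gave a family level of 2441 to 2543 RPM, 38 to 45 counted members, 3 members at 100 RPM either way, 1895 to 2030 RPM for bta-miR-2284x and 21 to 23 counted seeds. The family level moved from 2492 RPM to 2827 RPM with predicted lines that share a seed. It was 2903 RPM with predicted lines within 4 edits and 530 RPM without bta-miR-2284x, both chosen after seeing the data. A minimum of 10 counts left 24 of the 46 counted members. With at least 10 summed counts, 5 of 26 members lay over 2-fold apart, beside 13.2% of all lines, and with at least 100, 1 of 9 did, beside 2.22%. Size factors move the libraries in opposite directions, so that the means of the members were almost fixed by construction, but they turned the direction of the ratio of the libraries for 5 of 22 members. No paired analysis was possible because there was 1 bovine group with no other group to pair it with. Depth limits the 26 members below 1 RPM, and 2 pools limit every SD given.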

Other observations

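The list of predicted bovine precursors held many more of these sequences. Of 767 predicted precursors, 92 had a strand within 4 edits of a member, or 11.995%, and they lay on 27 of the 31 chromosomes or scaffolds listed, 44 on the plus strand and 48 on the minus strand. The strand with most reads was the 5p strand in 69 of them. Among the 10 precursors with the highest score, 6 were of this kind. Whether the same reads were scored at several similar precursors was not tested, so that the 6 may not be separate cases. The median score was 4.15 against 1.20 for the other precursors. Score and reads come from the same reads and are not independent, but they were not proportional, since bta-8_37539 had a score of 799 with 1563 reads and bta-16_10094 a score of 4.2 with 2985 reads.

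The highest score in the list belonged to bta-X_39470 at chrX:30190502-30190562 on the plus strand of UMD3.1, shown with both strands in capitals, 5p first.
bta-X_39470: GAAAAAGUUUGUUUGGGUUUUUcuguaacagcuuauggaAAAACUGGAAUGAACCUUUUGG
It was listed with 6461 reads of its 5p strand, pooled over the libraries, and a score of 3297. The quantification gave the same strand 58 counts in A2 and 67 in A4. For bta-1_846, at chr1:1006030-1006090 on the minus strand, the list gave 6445 reads and the quantification 56 and 61 counts. Both strands are 1 edit from bta-miR-2284z, which had 1989 and 1944 counts. bta-16_10094 went the other way, with 2985 reads in the list and 1889 and 2208 counts in the quantification. bta-X_39470 and bta-1_846 were named after their values were seen. How the 2 steps assigned reads that fit several sequences was not tested.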
